A study of Arabidopsis thaliana with 18 samples.

Results

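The MIR156 and MIR157 loci of Arabidopsis thaliana were examined as 10 annotated precursors, MIR156a to MIR156f and MIR157a to MIR157d. They were set by gene identifier rather than by their values, though earlier results of these data were known when they were chosen. All 10 were among the 32420 genes in the deposited table. The table holds small RNA reads of 22 nucleotides (22-nt) from 14-day-old whole seedlings. The 18 libraries form 6 groups of 3 biological replicates: the double mutant dcl4-2 dcl2-1 on MS medium with 1 µM abscisic acid (ABA) and on plain MS medium, the single mutant dcl4-2 on ABA and on MS, and the wild type Col-0 on ABA and on MS. DCL4 and DCL2 are Dicer-like enzymes, each gene is represented by 1 mutant allele, both mutants carry dcl4-2, and all groups share the MS base and the age. A separate growth field in the labels speaks instead of aerial parts of older, untreated plants on soil. The genotype, medium and age given per sample were followed here.

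miR156 and miR157 are closely related microRNAs that are abundant in young plants and decline as the shoot matures. They bind messenger RNAs of SPL transcription factors and lower their output, and the rise of SPL activity as the microRNAs decline brings about the change from juvenile to adult leaves. miR172 and its AP2-like targets act later on the same route. In plants, most microRNAs are cut from their precursor by DCL1, whereas DCL4 and DCL2 mainly make small interfering RNAs from double-stranded RNA, DCL2 those of 22 nucleotides. The reads described here are thus the 22-nt fraction at microRNA loci and not the main mature forms of these microRNAs.

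The annotated mature sequences are shown because their length decides which of them a 22-nt read can be. All are from RefSeq (TAIR10.1), written 5′ to 3′ with the seed, bases 2 to 8, in capitals. The annotated 5p product of all 6 MIR156 loci is the same 20-nt RNA, that of MIR157a, MIR157b and MIR157c is one 21-nt RNA, and that of MIR157d has 20 nt and the miR156 seed.
miR156a-5p: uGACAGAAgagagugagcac
miR157a-5p: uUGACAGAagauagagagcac
miR157d: uGACAGAAgauagagagcac
Only 2 annotated products are themselves 22 nt long, the 3p strands of MIR156a and MIR156c, which share a seed.
miR156a-3p: gCUCACUGcucuuucugucaga
miR156c-3p: gCUCACUGcucuaucugucaga
The 3p strand of MIR157a and MIR157b is a single 21-nt sequence, while that of MIR157c differs from it.
miR157a-3p: gCUCUCUAgccuucugucauc
miR157c-3p: gCUCUCUAuacuucugucacc
A target site in an SPL transcript pairs with nearly the whole miR156a-5p. The 2 sites below are shown for a coding site and a 3′ UTR site, with capitals at bases complementary to miR156a-5p. The site of SPL9 lies at chr2:17589066-17589085 on the plus strand, in the coding region, and has 1 mismatch, and that of SPL3 lies at chr2:14305878-14305897 on the plus strand, in the 3′ UTR, and has 2.
SPL9 site: GUGCUCuCUCUCUUCUGUCA
SPL3 site: uUGCUuACUCUCUUCUGUCA

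The precursors are short and partly alike, which limits what a 22-nt read can tell apart. MIR156a (AT2G25095) lies at chr2:10676451-10676573 on the minus strand, MIR156b (AT4G30972) at chr4:15074899-15075081 on the plus strand, and MIR156c (AT4G31877) at chr4:15415418-15415521 on the minus strand. MIR156d (AT5G10945) lies at chr5:3456632-3456749 on the minus strand, MIR156e (AT5G11977) at chr5:3867207-3867313 on the plus strand, and MIR156f (AT5G26147) at chr5:9136106-9136237 on the plus strand. MIR157a (AT1G66783) lies at chr1:24913202-24913299 on the minus strand and MIR157b (AT1G66795) at chr1:24921086-24921217 on the plus strand. MIR157c (AT3G18217) lies at chr3:6244500-6244716 and MIR157d (AT1G48742) at chr1:18026811-18027031, both on the minus strand. Each is annotated as a microRNA gene. These coordinates are of TAIR10.1, while the submitters' processing notes name TAIR10, and where the reads lie within a precursor is not in the table.

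Of the 102 stretches of 22 bases in MIR156a, 20 also occur in MIR156c, which has 83. The stretch that begins at the first base of miR156-5p is identical in MIR156a, MIR156c, MIR156d, MIR156e and MIR156f and has 5 matches in the genome. The annotated 22-nt 3p strands of MIR156a and MIR156c each have 1 exact match, so reads mapped without mismatches would be told apart. The strands differ at 1 base, and the mismatches allowed by the submitters are not given, so whether such reads were kept apart is not known. MIR157a and MIR157b share 36 stretches, out of 77 in MIR157a, including every one that holds an annotated product. Their reads were identical in 17 of 18 libraries and differed by 1 read in the other, so they are uncertain as separate loci. Sums over the family below leave MIR157b out, except in the correlations with other genes. MIR156b, MIR156d and MIR156f each overlap another annotated gene, and the gene overlapping MIR156d had 0 reads.

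The deposited values are headed TPM but were found to be RPM, reads scaled to the size of the library with no correction for length, each the mean over the 3 libraries of a group, and the whole reads of each library were recovered from these means. The libraries of a group are called A, B and C by falling depth. The totals behind the RPM values were lowest in library C of dcl4-2 dcl2-1 on MS, at 0.0953 M reads (mega, M), and highest in library A of dcl4-2 on ABA, at 12.7 M, so that 1 read was worth between 10.5 and 0.0789 RPM. The mutated genes cannot be checked with these reads, since DCL2 and DCL4 had 0 reads in all 6 dcl4-2 dcl2-1 libraries but also 0 in Col-0 on MS. Nor do 22-nt reads hold messenger RNA markers of the labelled tissue. At the nitrate reductase genes NIA1 and NIA2, the authors' mean summed to 259419 RPM in dcl4-2 on ABA, against 11448 RPM in dcl4-2 on MS and 905 RPM in Col-0 on MS, so these reads took a large part of the total behind the RPM values of that group.

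In dcl4-2 dcl2-1 on MS several read solutions gave the same deposited mean for MIR156a, MIR156b, MIR156c, MIR157a, MIR157b and MIR157c. At each of these loci library A had the same value in every solution, and so did the mean of libraries B and C. What differed was how the reads were split, since 52 reads of library B weigh as much as 5 of library C. MIR156a had 10 solutions, from 472 RPM in library B and 0 in library C to 0 in library B and 472 in library C. The most even split was used, which gives the smallest SD, and each other split was then tried in turn. Values of libraries B and C of this group, and SDs and overlaps that use them, thus rest on that choice, for these loci and for the shares of all genes given beside them.

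Per 100 bases of precursor, MIR157a had the highest mean level in 5 of the 6 groups, with 235 ± 26.9 RPM per 100 bases in dcl4-2 dcl2-1 on MS (SD, n = 3) and 77.4 ± 15.3 in Col-0 on MS. In Col-0 on ABA, MIR157c led with 80.2 ± 23.5 RPM per 100 bases, which was within the spread of MIR157a at 67.8 ± 18.7. The lead of MIR157a was within the spread of the next locus, MIR157b, in dcl4-2 on ABA and on MS and in dcl4-2 dcl2-1 on ABA. MIR157b has nearly the same reads over 132 against 98 bases, so a lead of MIR157a over it follows from precursor length in any group. In RPM, MIR157c was higher than MIR157a in Col-0 on MS (108 against 75.8). It was also higher in dcl4-2 dcl2-1 on ABA (139 against 86.9), within the spread. MIR156a and MIR157a had 237 and 231 RPM in dcl4-2 dcl2-1 on MS, within the spread. MIR157c took places 1 to 6 of this order over the 6 groups, and MIR156a places 2 to 6. In dcl4-2 dcl2-1 on ABA, MIR156a stood sixth at 14.8 ± 11.6 RPM per 100 bases, within the spread of MIR156c at 18.95 ± 16.7. In dcl4-2 dcl2-1 on MS it stood second at 192 ± 21.3 RPM per 100 bases, within the spread of MIR157b at 175 ± 19.9 and above MIR156c at 80.1 ± 34.4. In Col-0 on MS, MIR156a, MIR156b and MIR156c, at 30.5, 28.0 and 22.1 RPM per 100 bases, were within each other's spread.

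The other members were close to absent from the 22-nt fraction. MIR156d had 47 reads over the 18 libraries and never exceeded 3.65 RPM. MIR156f had 97 reads and MIR157d had 14. MIR156e had 9 reads in 3 libraries and did not reach the level at which a gene was tested, 1 RPM in at least 3 libraries, so 9 of the 10 members were tested. All of the 3 stretches of 22 bases at MIR156e that hold its mature sequence also occur in MIR156f, and 1 of them in MIR156a, which had 2530 reads. The 2 further members of the family in the table, MIR156g and MIR156h, had 0 reads in all 18 libraries, which allows up to 0.0791 RPM over the pooled depth. Within 1 group the same limit of 3 reads ran from 0.129 RPM in dcl4-2 on ABA to 1.49 RPM in dcl4-2 on MS. Limits of this kind cover counting error only, since the reads carry no molecular identifiers.

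**Figure D1:**
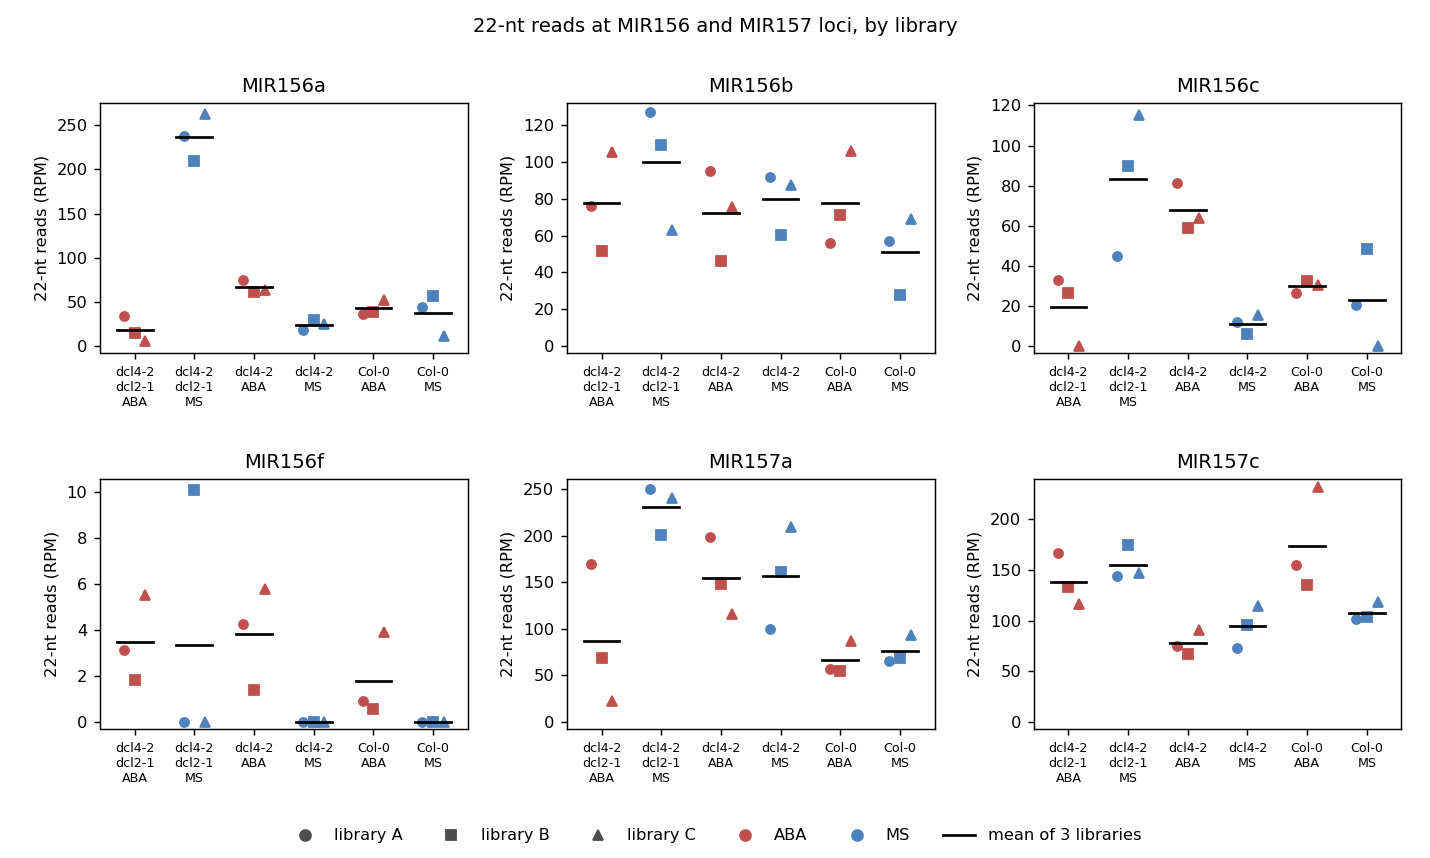
RPM of 22-nt reads at 6 of the loci, by group, with ABA left of MS within each genotype and Col-0 at the right. Each point is 1 library (A circle, B square, C triangle), the bar is the mean of 3 libraries, red is ABA and blue is MS. The 3 points of MIR156a in dcl4-2 dcl2-1 on MS, drawn with the most even read split, lie between 210 and 262 RPM, while no other group has a point above 75.3 RPM.

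The response to ABA asks how the 22-nt reads of these loci differed between the hormone and plain medium within a genotype. Tests were made with limma on log2(RPM + 1) over all 18 libraries, with Benjamini-Hochberg adjustment over all genes tested, and a member passed at an adjusted p under 0.05. Fold changes are log2 differences on that scale, which understates the change of loci with few reads, and errors of fold changes are standard errors (SE) from that fit. The 3 comparisons of ABA with MS use different libraries throughout, while comparisons of genotypes on one medium share them.

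In dcl4-2 dcl2-1, ABA went with fewer 22-nt reads at MIR156a and left MIR156b and MIR157c within their spread. MIR156a had 33.6, 15.4 and 5.53 RPM in libraries A, B and C of dcl4-2 dcl2-1 on ABA (43, 17 and 1 reads), against 237, 210 and 262 RPM in those on MS (260, 208 and 25 reads). All 3 ABA libraries lay below all 3 MS libraries in 8 of the 10 read splits. In bulk seedlings, fewer cells that make an RNA and less of it per cell cannot be told apart. MIR156a fell by 3.93 ± 0.68 on the log2 scale (adjusted p = 7.64e-05, limma), and was the 1 of 9 members that passed, against 0.228% of all genes tested in either direction and 0.0527% lower.

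The call of MIR156a rests on a spread shared with the other groups and on the read split. It passed in 8 of the 10 read splits, those with 52.5 to 420 RPM in library C. In the other two, which put 0 RPM in library B or C, the fold change was -1.64 and the adjusted p 0.676 (limma). With only the 6 compared libraries in the fit the adjusted p was 0.705 (limma) at the same fold change. The authors' deposited table gives -3.62 for this comparison, with p = 4.00e-05 and an adjusted p of 0.109. Without any 1 of the 6 libraries, the call held.

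MIR156c had 32.8, 26.3 and 0 RPM in dcl4-2 dcl2-1 on ABA, against 44.7, 89.8 and 115 RPM on MS. The groups did not overlap in 3 of its 4 read splits, but the fold change of -3.01 ± 0.87 did not pass (adjusted p = 0.146, limma). MIR157a, whose reads MIR157b shares, had 170, 68.9 and 22.1 RPM on ABA, against 250, 201 and 241 RPM on MS. With the most even split it lay lower in all 3 ABA libraries, but the groups overlapped in 6 of its 8 splits, and its fold change of -1.83 ± 0.55 did not pass (adjusted p = 0.159, limma). The value in library A on ABA was closest to the MS values at all these loci, and without that library MIR156c, MIR157a and MIR157b passed beside MIR156a. Library C on ABA, with 0.181 M reads, had 1 read at MIR156a, 0 at MIR156c and 4 at MIR157a.

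MIR156b and MIR157c gave no such gap in the same libraries. MIR156b had 75.8, 51.7 and 105 RPM in dcl4-2 dcl2-1 on ABA, against 127, 109 and 63.0 RPM on MS, and the groups overlapped in all 4 of its read splits. MIR157c had 167, 133 and 116 RPM on ABA, against 144, 175 and 147 RPM on MS, and overlapped in all 6 of its splits. Their fold changes were -0.36 ± 0.59 and -0.17 ± 0.51 in that order, and ran up to 0.66 and 0.57 with other splits. With the most even split, 4 of 9 members, MIR156a, MIR156c, MIR157a and MIR157b, had every ABA library below every MS library, against 0.86% of all genes tested. The median fold change of the 9 members was -0.82 (-0.59 without MIR157b), and that of all genes tested was 0.04.

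In dcl4-2, the low locus MIR156f rose on ABA and MIR156a and MIR156c stood higher without passing. MIR156f had 4.26, 1.40 and 5.80 RPM in dcl4-2 on ABA (54, 14 and 3 reads), against 0 reads in all 3 libraries of dcl4-2 on MS. Its mean on ABA of 3.82 ± 2.24 RPM (SD, n = 3) was 2.56 times the 1.49 RPM that 3 reads over the MS group would give. Library B on ABA, at 1.40 RPM, lay below that limit, and the highest value, in library C, rests on 3 reads. In the limma test it passed narrowly (adjusted p = 0.0484) and was the 1 of 9 members to do so, against 5.51% of all genes in either direction and 5.27% higher. The call ended under 11 of 13 other settings, among them the compared libraries alone (adjusted p = 0.122, limma). It was also lost on leaving out any 1 library of dcl4-2 on MS (adjusted p = 0.0944, 0.110 and 0.0962 without A, B and C), and on leaving out A (0.124) or C (0.240) of those on ABA. It held without library B on ABA and with the most uneven read splits. The authors' deposited table gives an adjusted p of 0.107.

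MIR156c had 81.4, 58.9 and 63.8 RPM in dcl4-2 on ABA, against 12.03, 6.01 and 15.6 RPM on MS. Every ABA library was above every MS library, and the fold change of 2.57 ± 0.87 lay just outside the threshold (adjusted p = 0.0561, limma), while with voom weights, which weight each value by its read number, it passed (adjusted p = 0.000245). MIR156a had 75.3, 60.9 and 63.8 RPM on ABA, against 18.1, 30.1 and 25.3 RPM on MS, again without overlap. Its fold change was 1.43 ± 0.68 (adjusted p = 0.167, limma; 0.0331 with voom weights). In this comparison 4 of 9 members, MIR156a, MIR156c, MIR156f and MIR157d, lay wholly higher on ABA, which 25.5% of all genes tested also did. MIR157d had 4, 1 and 1 reads on ABA and 0 on MS. Its 0.316 and 0.0998 RPM in libraries A and B on ABA lay below the MS limit of 1.49 RPM. The median fold change was 0.30 for the 9 members, 0.50 without MIR157b, whose reads repeat those of MIR157a, and 0.51 for all genes tested.

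Scaling matters for these values in dcl4-2, where reads at the 178 MIRNA loci in the table, which include the members, were higher on ABA as a whole. They summed to 10766 ± 3199 RPM on ABA, against 4010 ± 1971 RPM on MS (SD, n = 3 each). With this sum made equal in all libraries, the median of all genes tested shifted by -0.46, MIR156f no longer passed (adjusted p = 0.454, limma), and the fold change of MIR156a turned to -0.043.

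In Col-0, 0 of 9 members passed between ABA and MS with limma, 0 had an unadjusted p under 0.05 and 0 passed with voom weights, against 0.702% of all genes called. MIR156a had 37.0, 38.8 and 52.2 RPM in Col-0 on ABA, against 44.0, 56.4 and 12.1 RPM on MS, which overlap. MIR157c had 155, 135 and 232 RPM on ABA, against 101, 104 and 119 RPM on MS. MIR157c lay higher in all 3 ABA libraries, as did the low loci MIR156f and MIR157d, making 3 of 9 members against 16.3% of all genes tested. The fold change of MIR157c was 0.65 ± 0.51 (adjusted p = 0.536, limma). Reads at the MIRNA loci as a whole were higher on ABA in Col-0 too. They summed to 8794 ± 3155 RPM, against 4120 ± 818 RPM on MS (SD, n = 3 each). With this sum made equal in all libraries, the median of all genes tested shifted by -0.33. MIR156f had 2, 1 and 6 reads on ABA, or 0.913, 0.546 and 3.92 RPM, and 0 on MS, where 3 reads over the group would be 1.24 RPM. Library C alone lay above that limit. MIR157d had 1, 2 and 1 reads on ABA, or 0.457, 1.09 and 0.653 RPM, all below the same limit, and 0 on MS.

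**Figure D2:**
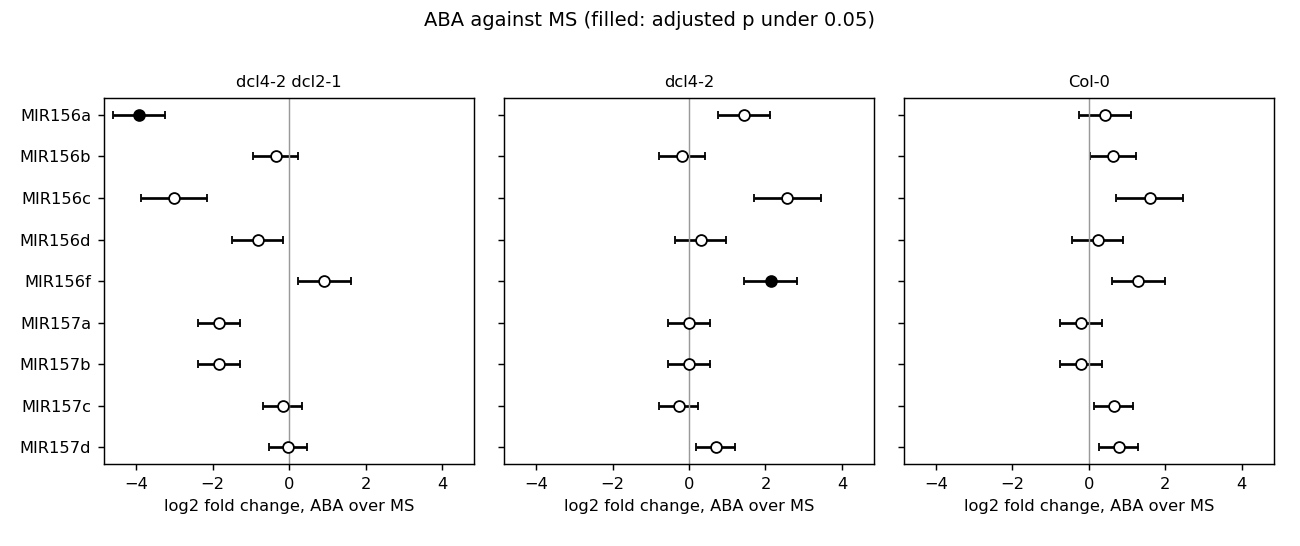
Log2 fold change of ABA over MS, on log2(RPM + 1), for the 9 tested members in dcl4-2 dcl2-1, dcl4-2 and Col-0. Points are limma estimates, bars are 1 SE, and filled points passed at an adjusted p under 0.05: MIR156a at -3.93 in dcl4-2 dcl2-1 and MIR156f at 2.14 in dcl4-2.

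The ABA effect itself was compared between genotypes with an interaction term in the same fit. For MIR156a it was lower in dcl4-2 dcl2-1 than in dcl4-2, with a difference of -5.37 ± 0.96 on the log2 scale (adjusted p = 0.000479, limma), made of the fall in the double mutant and of the value of 1.43 in dcl4-2, which did not pass by itself. For MIR156c the corresponding difference was -5.59 ± 1.23 (adjusted p = 0.0097, limma). These were 2 of 9 members, against 0.211% of all genes tested. MIR156a passed in 8 of its 10 read splits here and MIR156c in 3 of its 4. With the summed MIRNA level made equal, which shifted the median of all genes by 0.51, neither passed (adjusted p = 0.0749 and 0.471, limma). MIR156c was also lost with the 12 libraries of these genotypes alone (adjusted p = 0.319), or without dcl4-2 MS library B (0.0673), dcl4-2 ABA library C (0.133) or dcl4-2 dcl2-1 ABA library C (0.238).

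Set against Col-0, the ABA effect in dcl4-2 dcl2-1 was lower at MIR156a, with a difference of -4.35 ± 0.96 (adjusted p = 0.0083, limma), 1 of 9 members against 0.193% of all genes tested, and in 6 of 10 read splits. With the most even split all 9 members had a negative value in this difference, with a median of -1.05 (-1.02 without MIR157b) against -0.15 over all genes tested. With the split that puts each locus highest, 8 of 9 were negative. The call of MIR156a was lost without Col-0 MS library C (adjusted p = 0.133), Col-0 ABA library B (0.0525) or C (0.0599), or dcl4-2 dcl2-1 ABA library C (0.0510). It was also lost with the compared libraries alone (0.0675) and with the summed MIRNA level made equal (0.202). Between dcl4-2 and Col-0 the ABA effect differed at 0 of 9 members with limma, at 0 by unadjusted p under 0.05 and at 0 with voom weights, against 0.263% of all genes tested.

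The comparison of genotypes on one medium asks how the loci differ when DCL2 is lost beside DCL4, or DCL4 alone. On MS, MIR156a was higher in dcl4-2 dcl2-1 than in either other genotype. It had 237, 210 and 262 RPM in dcl4-2 dcl2-1, against 18.1, 30.1 and 25.3 RPM in dcl4-2, a fold change of 3.24 ± 0.68 (adjusted p = 0.0022, limma). It was the 1 of 9 members that passed, against 0.649% of all genes in either direction and 0.0702% higher. The call was made in 8 of 10 read splits and after leaving out each library, but not with only the 6 compared libraries (adjusted p = 0.0797) or without the filter on low values (0.0760).

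MIR156c had 44.7, 89.8 and 115 RPM in dcl4-2 dcl2-1 on MS, against 12.03, 6.01 and 15.6 RPM in dcl4-2 on MS. The groups did not overlap in 3 of its 4 read splits, and the fold change of 2.77 ± 0.87 did not pass (adjusted p = 0.140, limma) but did with voom weights (0.0037). With the most even split all 9 members had positive fold changes, with a median of 0.61 (0.67 without MIR157b, which repeats the reads of MIR157a), against -0.11 over all genes tested. MIR156f and MIR157d were positive through reads in library B of dcl4-2 dcl2-1 alone (10 and 2 reads). With the split that puts each locus lowest, 5 of 9 were positive, with a median of 0.51. MIR156a, MIR156c and MIR157c, 3 of 9 members, lay wholly higher in dcl4-2 dcl2-1 with the most even split, against 0.491% of all genes tested. MIR157c did so in 2 of its 6 splits.

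Set against Col-0 on MS, which had 44.0, 56.4 and 12.1 RPM, MIR156a was higher in dcl4-2 dcl2-1 by 2.87 ± 0.68 (adjusted p = 0.0071, limma). Of all genes tested, 1.25% were called in either direction, 1.23% lower and 0.0176% higher, which is 1 gene, MIR156a. It passed in 6 of 10 read splits and was lost without Col-0 MS library C, the one with 7 reads at MIR156a (adjusted p = 0.176), with the compared libraries alone (0.554) and without the filter on low values (0.0864). MIR157a had 250, 201 and 241 RPM in dcl4-2 dcl2-1, against 65.4, 69.1 and 93.0 RPM in Col-0, with no overlap in 5 of 8 read splits and a fold change of 1.60 ± 0.55 (adjusted p = 0.151, limma; 0.0124 with voom weights). With the most even split all 9 members again had positive fold changes, with a median of 1.16 (1.07 without MIR157b) against -0.34 over all genes. MIR156f and MIR157d were again positive through library B alone. Of the 9, 4 lay wholly higher, against 0.456% of all genes. They were MIR156a, MIR157a, MIR157b, which repeats the reads of MIR157a, and MIR157c, which did so in 2 of its 6 splits. With the split that puts each locus lowest, 7 of 9 were positive, with a median of 0.58.

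On ABA the order of the genotypes at MIR156a was the other way. MIR156a had 33.6, 15.4 and 5.53 RPM in dcl4-2 dcl2-1, against 75.3, 60.9 and 63.8 RPM in dcl4-2, a fold change of -2.12 ± 0.68 (adjusted p = 0.0426, limma). MIR156c had 32.8, 26.3 and 0 RPM in dcl4-2 dcl2-1, against 81.4, 58.9 and 63.8 RPM in dcl4-2, a fold change of -2.81 ± 0.87 (adjusted p = 0.0357, limma). In both, all 3 dcl4-2 dcl2-1 libraries lay below all 3 dcl4-2 libraries, as did those of 25.7% of all genes tested. These 2 of 9 members stand against 6.29% of all genes in either direction, and 6.18% of all genes were called lower. Neither passed with the compared libraries alone (adjusted p = 0.131 and 0.230), without the filter on low values (0.137 and 0.179), with a pseudocount of 5 (0.0664 and 0.0879) or with the summed MIRNA level made equal (0.808 and 0.777), which moved the median of all genes by 0.40. Both were lost without dcl4-2 ABA library A (adjusted p = 0.123 and 0.0874), B (0.0696 and 0.0570) or C (0.149 and 0.175), or without dcl4-2 dcl2-1 ABA library C (0.211 and 0.480), and MIR156a also without dcl4-2 dcl2-1 ABA library B (0.0882).

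Between dcl4-2 dcl2-1 and dcl4-2 on ABA, MIR157c and MIR157a had fold changes of opposite sign, and neither passed. MIR157c had 167, 133 and 116 RPM in dcl4-2 dcl2-1, against 75.4, 66.8 and 90.9 RPM in dcl4-2, and was the 1 of 9 members that lay wholly higher in the double mutant, against 1.35% of all genes tested. Its fold change of 0.82 ± 0.51 did not pass (adjusted p = 0.326, limma), and neither did that of MIR157a at -1.22 ± 0.55 (0.151). MIR157a had 170, 68.9 and 22.1 RPM in dcl4-2 dcl2-1, against 199, 149 and 116 RPM in dcl4-2, which overlap. Compared with Col-0 on ABA, 0 of 9 members passed in dcl4-2 dcl2-1 with limma, against 0.649% of all genes called, and 0 with voom weights. MIR156a, at -1.48 ± 0.68, was the 1 member with an unadjusted p under 0.05, as 1031 of the 5697 genes tested had.

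Between dcl4-2 and Col-0, no member passed with limma on either medium, and MIR157a and MIR157c lay on opposite sides on ABA. On MS, 0 of 9 members passed with limma, 0 had an unadjusted p under 0.05 and 0 passed with voom weights, against 0.456% of all genes called. On ABA, 0 of 9 passed with limma, against 0.228% of all genes called. An unadjusted p under 0.05 was found for 3, MIR157a, MIR157b and MIR157c, and for 335 of the 5695 genes tested. The same 3 passed with voom weights, for which no share of all genes is given here. MIR157b repeats the reads of MIR157a. MIR157a had 199, 149 and 116 RPM in dcl4-2 on ABA, against 57.1, 54.6 and 87.5 RPM in Col-0 on ABA. MIR157c had 75.4, 66.8 and 90.9 RPM in dcl4-2 on ABA, against 155, 135 and 232 RPM in Col-0 on ABA. MIR157a lay wholly higher, at 1.21 ± 0.55, and MIR157c wholly lower, at -1.13 ± 0.51 (adjusted p = 0.723 and 0.702, limma). In all, 4 of 9 members, MIR157b among them, lay wholly higher in dcl4-2 and 1 of 9 wholly lower, against 9.1% and 6.58% of all genes tested.

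**Figure D3:**
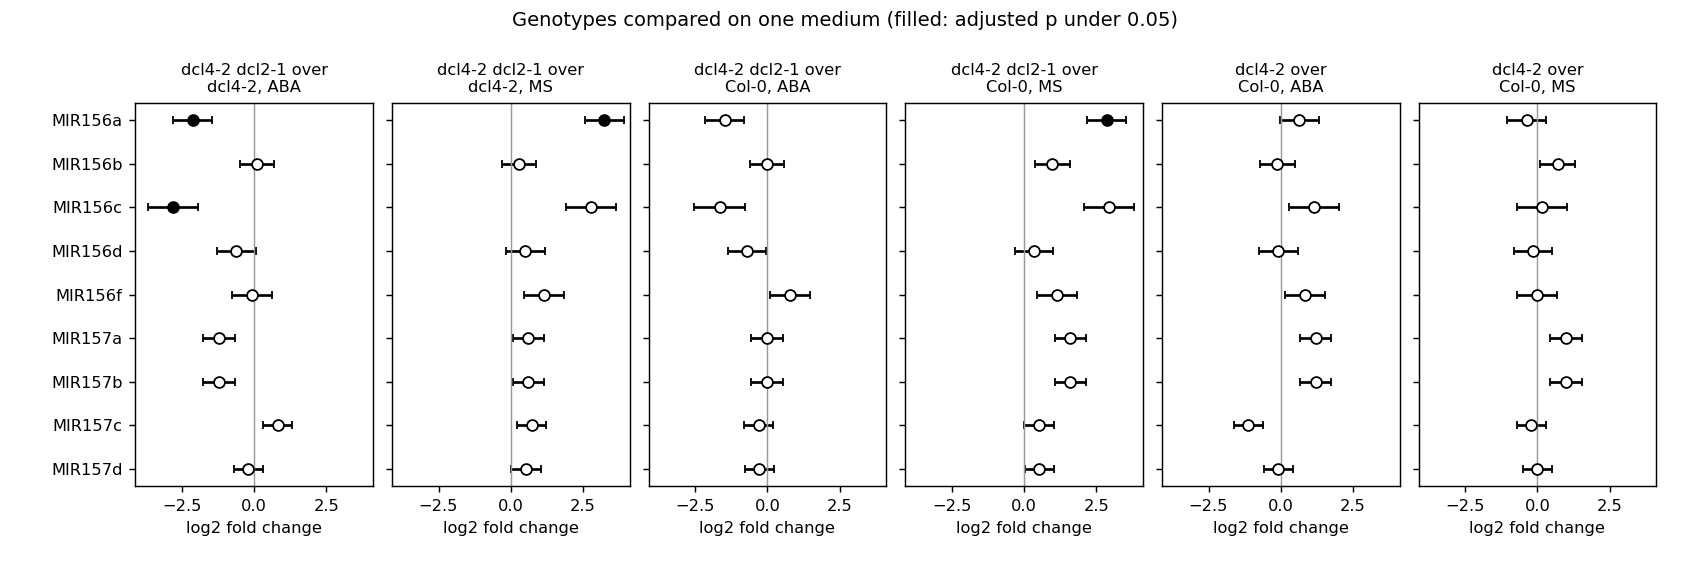
Log2 fold change between genotypes on one medium, on log2(RPM + 1), for the 9 tested members, with the genotype named first on top of the fold change. Points are limma estimates, bars are 1 SE, and filled points passed at an adjusted p under 0.05: MIR156a at 3.24 and 2.87 on MS, and MIR156a at -2.12 and MIR156c at -2.81 on ABA, all in dcl4-2 dcl2-1.

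**Figure D4:**
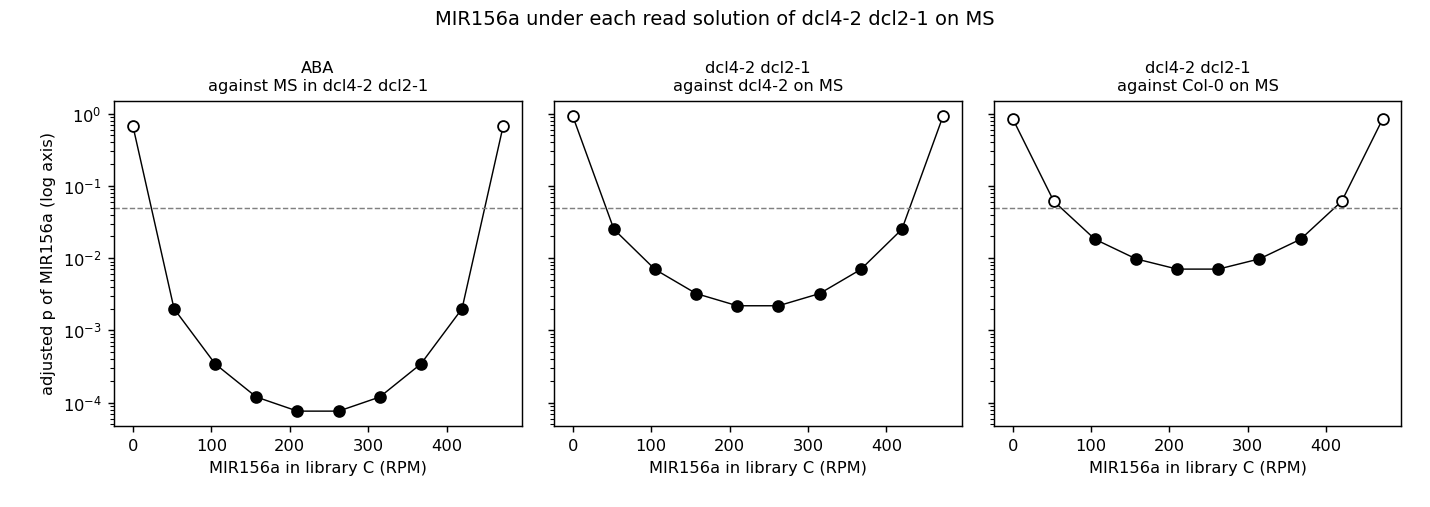
Adjusted p of MIR156a (limma, log axis) in 3 comparisons with dcl4-2 dcl2-1 on MS, for each of the 10 read splits that give its deposited mean, placed by the RPM they put in library C. Filled points are under 0.05, marked by the dashed line: 8, 8 and 6 of 10 splits passed, and the ends, with 0 RPM in library B or C, did not.

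Ratios between loci within a library do not depend on how libraries were scaled to each other, and they are given as a description without a test. The ratio of MIR156a to MIR157c was 0.202, 0.116 and 0.0476 in libraries A, B and C of dcl4-2 dcl2-1 on ABA, against 1.65 in library A on MS and 1.47 in the mean of libraries B and C, which have a fixed mean but no fixed split. In dcl4-2 it was 0.998, 0.912 and 0.702 on ABA, against 0.246, 0.313 and 0.220 on MS. In Col-0 the same ratio lay between 0.225 and 0.287 on ABA, against 0.101 to 0.544 on MS. All 3 ABA values of the double mutant lay below both of its fixed MS values, those of dcl4-2 lay above its MS values, and those of Col-0 overlapped.

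The ratio of MIR157a to MIR157c was read in the same way. On ABA it was 1.019, 0.517 and 0.190 in dcl4-2 dcl2-1, and 2.64, 2.23 and 1.28 in dcl4-2, against 0.368, 0.405 and 0.377 in Col-0. On MS it was 1.73 in library A and 1.38 in the mean of B and C in dcl4-2 dcl2-1, and 1.36, 1.67 and 1.83 in dcl4-2, against 0.646, 0.667 and 0.783 in Col-0. All 6 dcl4-2 libraries lay above all 6 Col-0 libraries in this ratio, while the double mutant overlapped Col-0 on ABA.

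Taken as one family, with MIR157b left out, the loci had 254 to 482 RPM in dcl4-2 dcl2-1 on ABA, against 807 RPM in library A on MS and 814 RPM in the mean of libraries B and C. Those MS values do not depend on the read split. The highest library of any other group had 533 RPM, in dcl4-2 on ABA. The family was 3.14% to 10.8% of reads at the MIRNA loci in dcl4-2 dcl2-1 on ABA, against 18.5% in library A on MS and 19.01% in the mean of B and C. It was 2.94% to 5.76% in dcl4-2 on ABA, against 7.78% to 17.97% on MS, and 4.18% to 5.19% in Col-0 on ABA, against 5.77% to 8.57% on MS. In dcl4-2 and in Col-0 the share was lower in all 3 ABA libraries than in all 3 MS libraries, and in dcl4-2 dcl2-1 it was lower in all 3 ABA libraries than in both fixed MS values, while the other MIRNA loci changed at the same time. MIR156a made up 2.17% to 6.97% of the family in dcl4-2 dcl2-1 on ABA, against 29.4% in library A on MS and 29.0% in the mean of B and C.

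**Figure D5:**
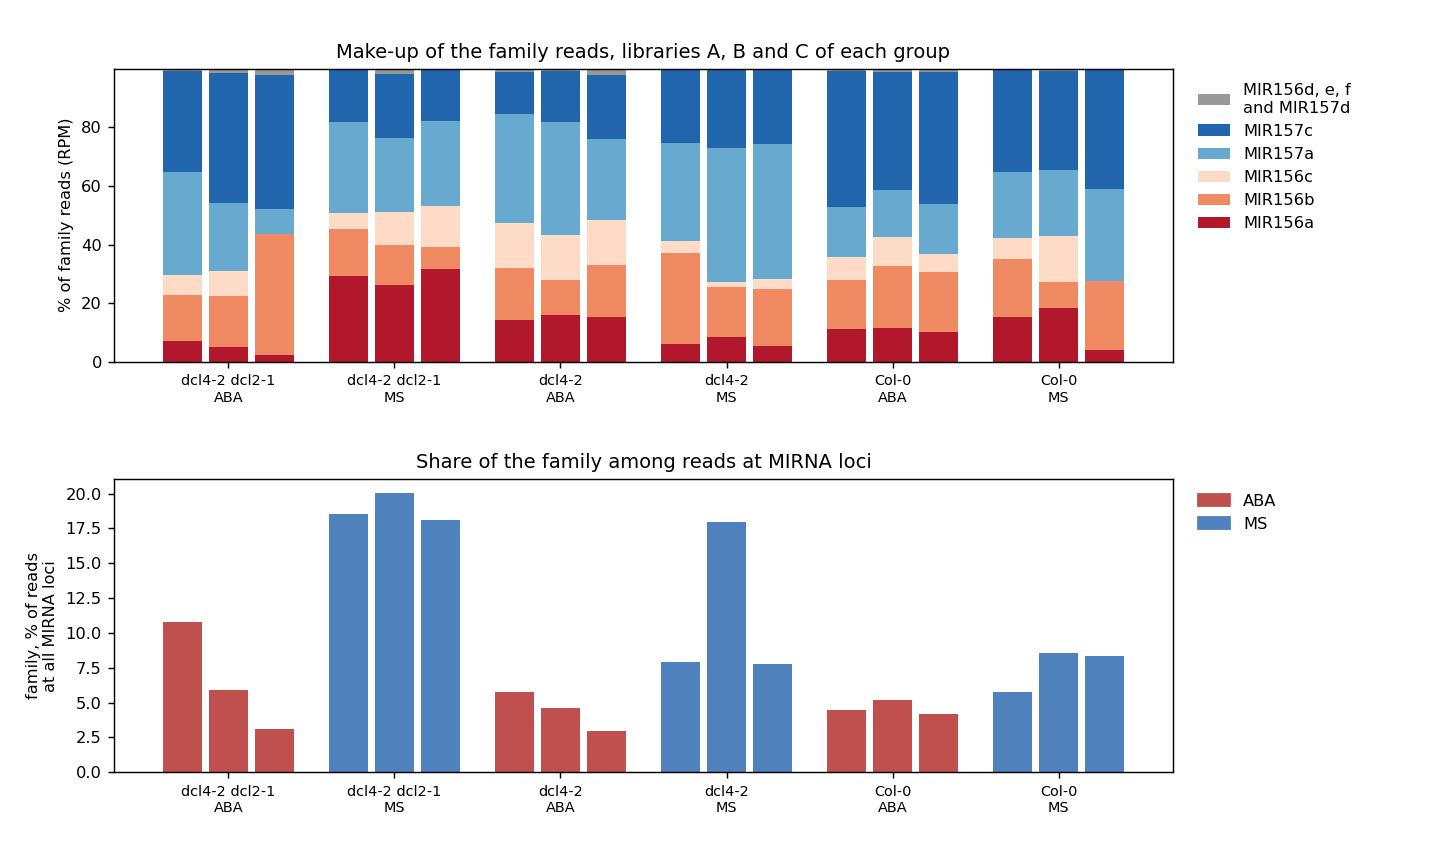
Top, make-up of the 22-nt family reads in each library, as a percentage of the summed RPM with MIR157b left out. Bottom, the family as a percentage of reads at the MIRNA loci, red on ABA and blue on MS. Libraries run A, B, C within a group, and MIR156a takes 2.17% to 6.97% in dcl4-2 dcl2-1 on ABA and, with the most even read split drawn for libraries B and C, 26.3% to 31.6% on MS.

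Across the 18 libraries, with the most even split, log2(RPM + 1) of MIR156a went most closely with that of MIR156c among the other 8 tested members (Pearson r = 0.81), then with MIR157a (r = 0.69), and less with MIR157c (r = 0.21) or MIR156b (r = 0.10). Over the read splits the value for MIR156c ran from 0.11 to 0.81. In the 15 libraries outside dcl4-2 dcl2-1 on MS it was 0.87, that of MIR157a 0.50, that of MIR157c -0.13 and that of MIR156b -0.29. Among the other 5686 genes, those most like MIR156a were AT4G20830 (r = 0.79), GHS1 (0.75), AT2G41840 (0.74), the microRNA gene MIR167c (0.71) and ABCF1 (0.71). In those 15 libraries they had r = 0.72, 0.39, 0.64, 0.76 and 0.42 in the same order. For the summed family they were ABCF1 (r = 0.69), AT3G09630 (0.68), the chloroplast loci ATCG00840 and ATCG01300 (0.67 each, with the same values) and GHS1 (0.65). In the 15 libraries these became 0.37, 0.44, 0.48 for both chloroplast loci, and 0.091. The family sum in these correlations included MIR157b, so reads it shares with MIR157a were counted at both loci. These values describe 18 libraries that fall into 6 groups, that differ in depth and share the same scaling.

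The rest of the phase-change route was hardly seen in 22-nt reads. Of the 11 SPL genes with a miR156 site, 6 had any read and 0 reached the level for testing. SPL13A and SPL13B, near-identical copies, had the most, 20 reads each over the 18 libraries, with the same reads in 18 of 18, so they are uncertain as separate genes. Of the 5 MIR172 loci, MIR172b had 14 reads and MIR172a 1, and the other three had 0. Of the 6 AP2-like genes, TOE1 had 6 reads and TOE2 had 7. Of the 5 genes of microRNA biogenesis, DCL1, which cuts microRNA precursors, had 58 reads, and SE had 7. Of the DCL1 reads, 42 were in dcl4-2 on ABA, the group with the deepest library, and 0 in the 6 dcl4-2 dcl2-1 libraries. In those, 3 reads over the group would be 1.38 RPM on MS and 1.17 RPM on ABA. The means of the other groups were 1.26 to 2.00 RPM, so the 0 is weak evidence of a difference. MIR172b, TOE1 and DCL1 were tested in all 12 comparisons and passed in 0 of them with limma.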

How the data were processed

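Per the labels, small RNA was extracted with the miRNeasy kit, and NEBNext libraries were sequenced as paired-end reads, of which the first read was used. The submitters' processing notes name Bowtie 1.2.2, SAMtools 1.9, DESeq2 and TAIR10 without roles. Not given in the sources used here are trimming, mismatches and the handling of reads with several matches. The deposited table, headed TPM per the file headers, holds group means that are RPM values: each is a sum of whole multiples of 3 fixed steps, the same for every gene. The authors also deposited log2 fold changes with p-values and adjusted p-values for 4 comparisons.

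Whole reads per library were recovered from the deposited means in Python 3.11.15, which was tested on simulated counts. The reads had 1 solution for all members except 6 in dcl4-2 dcl2-1 on MS. Libraries of 1 group were compared in pairs, and the chi-square per gene, 1.66 to 30.6, exceeded that of counting noise in each. The recovered libraries carry no replicate number.

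Fits used limma 3.58.1 in R 4.3.3, with a variance trend, a pseudocount of 1 and 1 mean per group, on 5697 genes that reached 1 RPM in 3 or more libraries (5695 where dcl4-2 on ABA enters, since NIA1 and NIA2 were not recovered there). P-values were two-sided. The design was written for TPM and kept for RPM. Alternatives changed the pseudocount, filter, libraries in the fit, scaling, weights, read split and each library in turn. Trying each read split of a member in turn was chosen after seeing the data. All 10 members are named, as are the genes of the SPL, MIR172, AP2-like, further MIR156 and biogenesis lists that passed or were the 2 highest of their list, and the 5 genes most alike. Members and lists were chosen with earlier results of these data known. Sequences and coordinates are from RefSeq TAIR10.1.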

Additional observations from a re-analysis of the deposited data

Results flagged for a closer look

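The ABA effect at MIR156a differed between genotypes by the test of the difference itself. It was -3.93 ± 0.68 in dcl4-2 dcl2-1 and 1.43 ± 0.68 in dcl4-2, a difference of -5.37 on the log2 scale (adjusted p = 0.000479, limma). Set against Col-0, where the effect was 0.42 ± 0.68, the difference was -4.35 (adjusted p = 0.0083, limma). MIR156c differed in the same way between dcl4-2 dcl2-1, at -3.01 ± 0.87, and dcl4-2, at 2.57 ± 0.87, by -5.59 (adjusted p = 0.0097, limma). Both comparisons share the dcl4-2 dcl2-1 libraries. Beside these values stand the depth of dcl4-2 dcl2-1 library C, with 0.181 M reads (M, mega) on ABA and 0.0953 M on MS, and the unsettled read split on MS. With the summed MIRNA level made equal none of the 3 passed (adjusted p = 0.0749 for MIR156a and 0.471 for MIR156c against dcl4-2, 0.202 for MIR156a against Col-0, limma). With the compared libraries alone MIR156c (0.319) and MIR156a against Col-0 (0.0675) were lost, and the call against Col-0 was also lost without any 1 of 4 libraries. The part of depth in these differences was not tested.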

How the results depend on the processing

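Over the other settings tried, 115 of the counts of members that passed were within 1.5 times the main count and 59 were not. No share of all genes called is given here for those settings, voom weights among them. Their counts of members thus cannot be set against a background. In ABA against MS in dcl4-2 the count of 1 became 0 with a pseudocount of 0.25 or 5, without the filter on low values, with the compared groups only and with the summed MIRNA level made equal, and 2 with voom weights. The fold change of MIR156a there turned to -0.043 with the summed MIRNA level made equal, the only change of sign among members with an unadjusted p under 0.05. Other read splits turned the sign of members that did not pass: in ABA against MS in dcl4-2 dcl2-1 up to 0.66 at MIR156b and 0.57 at MIR157c, in dcl4-2 dcl2-1 against dcl4-2 on MS down to -0.73 at MIR156b, -0.013 at MIR157a and -0.019 at MIR157c, against Col-0 down to -0.033 at MIR156b and -0.22 at MIR157c, and in the difference of the ABA effect up to 0.026 from Col-0 and 0.84 from dcl4-2 at MIR156b. In ABA against MS in dcl4-2 dcl2-1 the count of 1 became 0 with the compared groups only and with the most unequal read split. In dcl4-2 against Col-0 on ABA the count of 0 became 3 with voom weights. In dcl4-2 dcl2-1 against dcl4-2 on MS the count of 1 became 0 without the filter, with the compared groups only and with the most unequal split, and 2 with voom weights. On ABA the count of 2 became 1 with a pseudocount of 0.25, and 0 with one of 5, without the filter, with the compared groups only, with the MIRNA level made equal and with the most unequal split. In dcl4-2 dcl2-1 against Col-0 on MS the count of 1 became 2 with a pseudocount of 0.25, 4 with voom weights, and 0 without the filter, with the compared groups only and with the most unequal split. In the difference of the ABA effect between dcl4-2 dcl2-1 and dcl4-2 the count of 2 became 1 with a pseudocount of 5, without the filter and with the compared groups only, and 0 with the MIRNA level made equal and the most unequal split. Between dcl4-2 dcl2-1 and Col-0 the count of 1 became 2 with a pseudocount of 0.25 and 0 without the filter, with the compared groups only, with the MIRNA level made equal and with the most unequal split.

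Leaving out 1 library gave 0 to 1 members in ABA against MS in dcl4-2 and 1 to 4 in dcl4-2 dcl2-1. It gave 0 to 4 in dcl4-2 dcl2-1 against dcl4-2 on ABA, and 0 to 2 in dcl4-2 dcl2-1 against Col-0 on MS. For the difference of the ABA effect it gave 1 to 2 between dcl4-2 dcl2-1 and dcl4-2, and 0 to 2 between dcl4-2 dcl2-1 and Col-0. Where a fit without the filter lost a call, more genes with few reads entered the adjustment, and a fit with the compared groups only has fewer libraries. Whether this caused the lost calls was not tested, and neither was the cause of the other changes. Equal MIRNA sums shifted the median of all genes by over 0.1 in 8 of 12 comparisons. No paired analysis was possible because the recovered libraries carry no replicate number. In library C of dcl4-2 dcl2-1, 1 read was worth 5.53 RPM on ABA, against 10.5 RPM on MS, so differences of a few RPM were not detectable there.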
